A study of Mus musculus with 6 samples.

Results

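The MYC transcription factor and 33 genes of ribosome biogenesis, 34 of the 28773 genes listed, were followed in splenic CD8+ T cells by bulk RNA-seq. They were chosen by name, from a list of MYC, nucleolar proteins, RNA polymerase I factors, snoRNP proteins and pre-rRNA processing factors, and all 34 were listed and passed the filter on low values. The MWA+PBS group (n = 3, replicates 1 to 3) came from mice whose tumor had been destroyed by microwave ablation (MWA) and that received the vehicle PBS. The MWA+2DG group (n = 3, replicates 4 to 6) received the same ablation and 2-deoxy-D-glucose (2DG), a glucose analogue that blocks glycolysis. Both groups thus carried the ablation, and all cells were taken on day 35, after the repeated injections into the abdomen had ended. The study used only female mice, and its methods give an age of 6 weeks for wild-type mice of both strains used, BALB/c and C57BL/6. The sources used here do not tie a strain or a tumor line to these 6 samples. CD8+ T cells were separated from spleen suspensions, after lysis of red cells, with a magnetic isolation kit. Whether each sample is a separate mouse is not stated, so p-values measure the spread between these samples. The comparison asks how the genes of ribosome production stood after 2DG. The labels name no batch, and 2DG cannot be told apart from one that ran along with the groups.

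MYC binds DNA as a dimer with MAX at E-boxes, short motifs that read CACGTG, and is known for driving growth and ribosome production in activated T cells. Ribosomes are built in the nucleolus: RNA polymerase I transcribes the ribosomal DNA, snoRNPs modify the long precursor RNA, and processing factors cut it and assemble it into the small (40S) and large (60S) subunits. MYC is known to raise many genes of each of these steps, and resting T cells hold them at lower levels than dividing ones.

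Over the 34 genes, the levels of the groups lay close together and few genes were called. Myc was higher in MWA+2DG and 6 assembly and transcription factors, Pa2g4, Bop1, Wdr12, Rrp12, Mybbp1a and Rrp9, were lower, each by a limma test across all genes at a Benjamini-Hochberg adjusted p under 0.05, but Myc was below 0 and not called when samples were scaled to equal CD8 T cell marker levels. After that scaling 32 of the 34 genes, all but Myc and Gnl3, were called lower and 0 higher, as were 7622 and 595 of the 12444 genes tested. The 6 lower genes were 17.6% of the 34, against 17.1% of the 12444 genes tested that were called lower. The 1 higher gene was 2.94% of the 34, against 22.3% of all genes called higher. The other 27 genes were not called. The study's methods select genes at P under 0.05 and a log fold change beyond 0.25 in either direction, with no base given for the log. Read on the log2 scale, 4 were lower and 1 higher, against 16.6% and 21.6% of all genes. The values of the groups did not overlap in 7 genes that were lower and 3 that were higher in MWA+2DG, against 21.9% and 30.2% of all genes.

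All values are FPKM, the fragments of a transcript divided by its length and by the mapped total of its library, so levels of different genes can be set side by side, and read depth is unknown. The 34 genes together held 1053 to 1115 FPKM per sample in MWA+PBS and 1023 to 1069 FPKM in MWA+2DG. Npm1 was the highest of them in MWA+PBS, at 251.1 ± 28.6 FPKM (SD, n = 3), followed by Ncl at 77.4 ± 5.42, Pa2g4 at 64.5 ± 3.19, Ddx21 at 63.4 ± 0.402 and Myc at 60.3 ± 3.69. The lowest were Polr1b at 6.43 ± 0.285 FPKM and Wdr12 at 3.29 ± 0.303 FPKM. Fold changes are differences of log2(FPKM + 1), MWA+2DG minus MWA+PBS, a scale that understates the change of low genes. Their median over the 34 genes was -0.06, beside 0.05 over all genes tested, and 29 of the 34 (85.3%) lay within 0.25 of 0, against 57.6% of all genes.

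**Figure D1:**
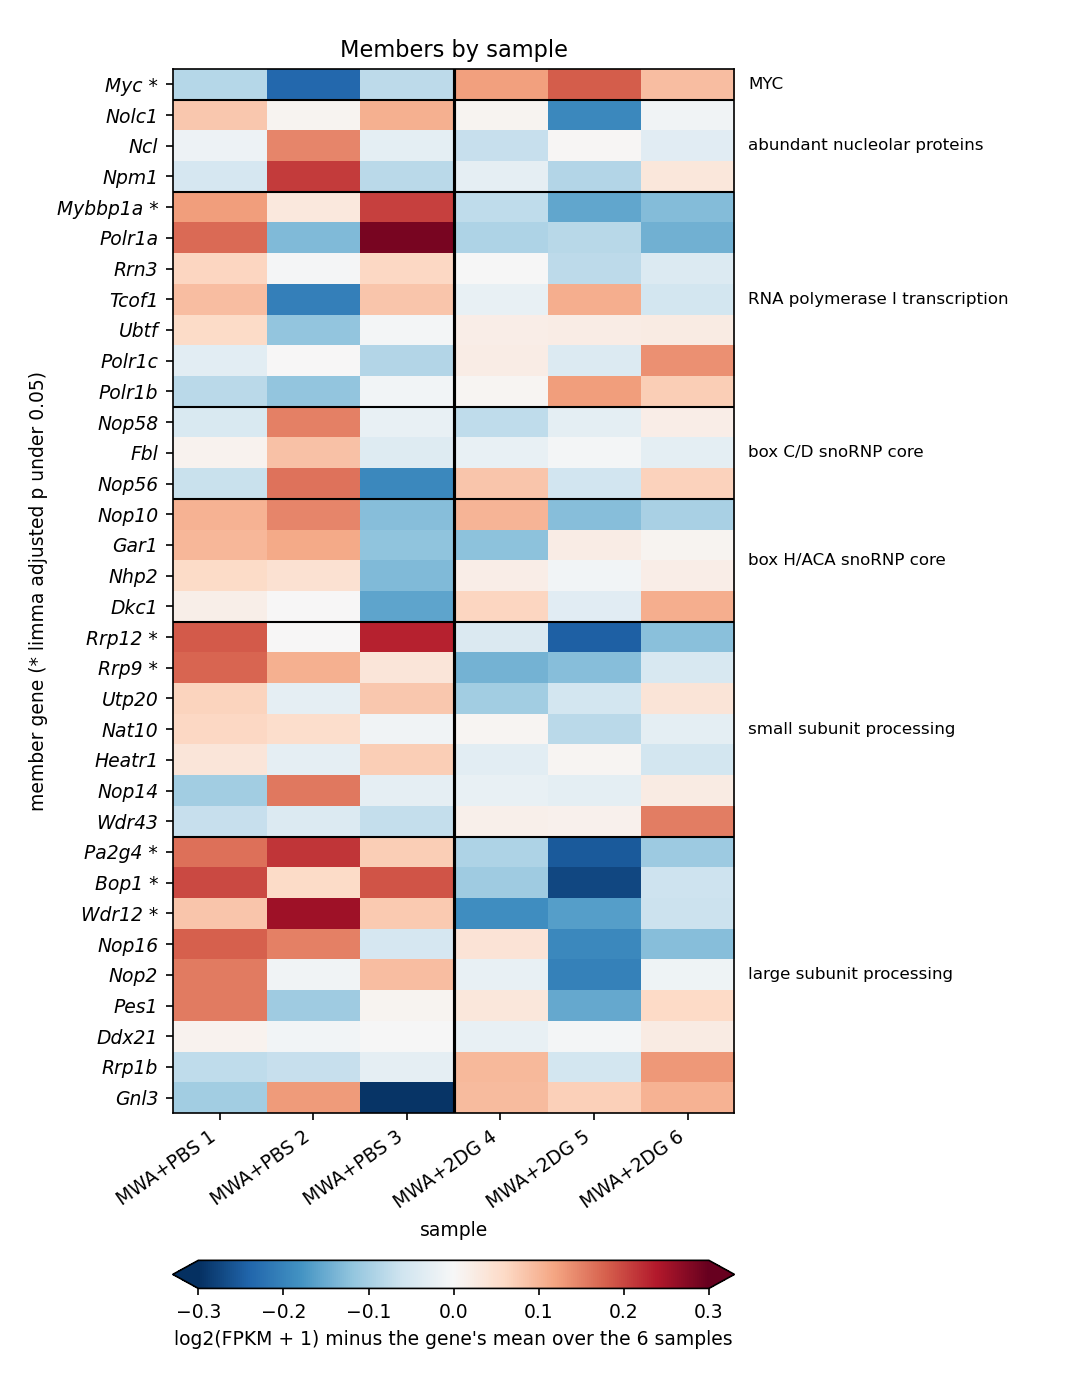
Each row is 1 of the 34 genes, grouped by role, each column is a sample, and the color gives log2(FPKM + 1) minus the mean of that gene over the 6 samples. Asterisks mark the 7 genes at an adjusted p under 0.05, of which Myc is higher in the 3 MWA+2DG samples (below 0 after scaling to CD8 T cell markers) and 6 are lower. In Nop2, Polr1b and Wdr43 the groups also do not overlap, and in the other rows they do.

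E-boxes in the promoters are shown first, because this is the motif that MYC and its dimer partners bind. RefSeq promoter windows (GRCm38.p6, 250 bases before to 50 after the start of each gene) held 28 of the 34 genes, and Myc, Npm1, Rrp12, Fbl, Bop1 and Tcof1 had no entry. The motif CACGTG, which reads the same on both strands, was present in 6 of the 28 genes (21.4%), against 12.1% of the 8342 tested genes with a window and 8.09% of all 27025 genes in the table. The sites follow in capitals with up to 12 bases on each side, read 5′ to 3′ on the strand of the gene.
Nop2, chr6:125131811-125131840, plus strand: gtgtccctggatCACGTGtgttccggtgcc
Utp20, chr10:88826765-88826789, minus strand: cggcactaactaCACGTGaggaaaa
Pes1, chr11:3963965-3963994, plus strand: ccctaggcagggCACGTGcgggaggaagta
Mybbp1a, chr11:72441355-72441376, plus strand: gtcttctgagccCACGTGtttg
Rrn3, chr16:13780472-13780501, plus strand: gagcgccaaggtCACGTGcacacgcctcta
Rrn3, chr16:13780639-13780668, plus strand: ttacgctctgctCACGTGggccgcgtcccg
Wdr43, chr17:71616220-71616249, plus strand: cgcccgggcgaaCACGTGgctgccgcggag
Rrn3, which encodes the factor that brings RNA polymerase I to the ribosomal DNA, was the gene with 2 E-boxes, starting 215 and 48 bases before its start. Its 250 upstream bases are printed with both motifs in capitals, above those of Pa2g4, which held none. Pa2g4 was the gene with the largest decrease on the log2(FPKM + 1) scale.
Rrn3, chr16:13780449-13780698, plus strand: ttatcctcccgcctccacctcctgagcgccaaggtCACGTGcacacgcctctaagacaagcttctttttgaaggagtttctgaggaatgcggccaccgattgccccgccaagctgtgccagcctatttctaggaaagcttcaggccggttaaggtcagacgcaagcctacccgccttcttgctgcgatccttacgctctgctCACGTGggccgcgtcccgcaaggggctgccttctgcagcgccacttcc
Pa2g4, chr10:128565935-128566184, minus strand: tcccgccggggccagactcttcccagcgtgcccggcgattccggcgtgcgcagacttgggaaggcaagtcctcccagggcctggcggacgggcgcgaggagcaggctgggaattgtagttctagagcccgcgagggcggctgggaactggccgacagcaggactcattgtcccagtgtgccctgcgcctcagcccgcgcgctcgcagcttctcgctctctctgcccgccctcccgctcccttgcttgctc
Fold changes of genes with and without the motif were set side by side, without a test. Among the 6 with an E-box, 1 (Mybbp1a) was lower and the median log2 fold change was -0.08. Among the 22 with a window and no E-box, 3 were lower and the median was -0.06. Over all genes tested, 17.1% were called lower. Rrn3 itself stood at 13.2 ± 0.382 FPKM in MWA+PBS, against 12.4 ± 0.355 FPKM in MWA+2DG and did not pass (log2 fold change -0.08, limma adjusted p = 0.269). A match is only a description of the letters in these windows.

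Myc (ENSMUSG00000022346), the regulator, had 62.3, 56.0 and 62.6 FPKM in MWA+PBS replicates 1 to 3 and 72.2, 75.2 and 70.6 FPKM in MWA+2DG replicates 4 to 6. Each MWA+2DG sample lay above each MWA+PBS sample, and MWA+PBS replicate 2 was the lowest of all. The group means were 60.3 ± 3.69 and 72.6 ± 2.35 FPKM (SD, n = 3), a ratio of 1.20. The log2 fold change was 0.27 with an SE of 0.06 (limma adjusted p = 0.0114) and turned to -0.17 (limma adjusted p = 0.0742) after scaling to the CD8 T cell markers. That scaling makes the mean log2 level of 14 CD8 T cell genes equal in every sample and moved the median fold change of all genes from 0.05 to -0.33. Relative to the median of all genes, the fold change of Myc was 0.22 as deposited and 0.16 after the scaling.

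The genes of abundant nucleolar proteins did not pass the test. Nolc1, which encodes a phosphoprotein that binds snoRNPs, differed most of these 3, with 34.9, 33.1 and 35.5 FPKM in MWA+PBS, against 33.1, 28.6 and 32.7 FPKM in MWA+2DG. The groups touched at 33.1 FPKM, and MWA+2DG replicate 5 was the lowest sample (log2 fold change -0.13, limma adjusted p = 0.168). Npm1, for the nucleolar chaperone nucleophosmin, had 237.2, 284.0 and 232.2 FPKM in MWA+PBS, against 240.9, 230.9 and 251.6 FPKM in MWA+2DG. Only MWA+PBS replicate 2 stood away from the other 5 samples, and the 95% interval of the log2 fold change ran from -0.25 to 0.15. Ncl, for nucleolin, which binds precursor rRNA, had a fold change of -0.07 (limma adjusted p = 0.425). Sequences at least 95% identical over 200 bases or more to Npm1 lie in 4 other listed genes, of which Gm14681 had a mean of 33.9 FPKM and Gm9118 a mean of 24.5 FPKM, so the level of Npm1 is uncertain by that sharing.

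Of 7 genes of RNA polymerase I transcription, 1 fell (14.3%, against 17.1% of all genes tested) and the rest did not pass. Mybbp1a, for a nucleolar protein that binds RNA polymerase I and has been described as restraining rDNA transcription, had 47.2, 44.1 and 49.9 FPKM in MWA+PBS, against 40.9, 38.6 and 39.3 FPKM in MWA+2DG. The groups did not overlap. Its log2 fold change was -0.24 with an SE of 0.06 (limma adjusted p = 0.0159). Polr1a, for the largest subunit of the enzyme, had 11.4, 9.04 and 12.4 FPKM in MWA+PBS, against 9.33, 9.40 and 8.96 FPKM in MWA+2DG. MWA+PBS replicate 2 lay among the MWA+2DG samples, and Polr1a did not pass (log2 fold change -0.21, limma adjusted p = 0.147), though it did without that replicate (limma adjusted p = 0.00714). Polr1b, for the other large catalytic subunit, was above all MWA+PBS samples in each MWA+2DG sample and did not pass (log2 fold change 0.14, limma adjusted p = 0.126; -0.25 after scaling to CD8 T cell markers). Polr1c, Ubtf, for the factor that coats active ribosomal DNA, and Tcof1, for the nucleolar phosphoprotein treacle, had fold changes of 0.08, 0.04 and 0.02 and did not pass as deposited, but all 3 were below 0 and called lower after that scaling.

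The snoRNP proteins, which carry the guide RNAs for rRNA modification, did not pass the test. None of the 3 box C/D genes (Fbl, the rRNA methyltransferase fibrillarin, with Nop56 and Nop58, its scaffold) passed as deposited. None of the 4 box H/ACA genes (Dkc1, the pseudouridine synthase dyskerin, with Gar1, Nhp2 and Nop10) passed either. The log2 fold changes of both groups lay between -0.08 and 0.09. After scaling to CD8 T cell markers each of these genes was called lower, as were 7622 of the 12444 genes tested. Nop56 had 38.6, 45.4 and 35.3 FPKM in MWA+PBS, against 43.0, 38.9 and 42.5 FPKM in MWA+2DG. The MWA+2DG samples lay inside the range of the MWA+PBS samples (log2 fold change 0.06, limma adjusted p = 0.617; -0.37 after scaling to CD8 T cell markers). Dkc1 had 24.0, 23.7 and 21.2 FPKM in MWA+PBS, against 24.8, 23.1 and 25.6 FPKM in MWA+2DG, with overlapping groups and a 95% interval of -0.07 to 0.25 for a fold change of 0.09 (-0.33 after that scaling). The GENCODE M21 annotation places 19 snoRNA genes inside 6 of the 34 genes, 5 of them in Nop56, 4 in Nop58, 3 each in Gnl3, Ncl and Wdr43 and 1 in Dkc1. None of these 6 host genes was called as deposited, against 17.1% of all genes tested called lower and 22.3% higher. After scaling to CD8 T cell markers Dkc1, Ncl, Nop56, Nop58 and Wdr43 were called lower. As deposited, Gnl3 was called higher without MWA+PBS replicate 2 or with arrayWeights. Fbl shares stretches at least 95% identical with 2 other listed genes and Nop56 with 4, of which the highest had means of 3.74 and 7.24 FPKM, so their levels are uncertain by that sharing. The 1 such gene of Ddx21, Gm37197, had a mean of 0.013 FPKM.

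Of 7 genes of small subunit processing, 2 fell (28.6%, against 17.1% of all genes tested). Rrp12, for a protein of pre-40S maturation and nuclear export, had 12.5, 10.9 and 12.9 FPKM in MWA+PBS, against 10.6, 9.03 and 9.90 FPKM in MWA+2DG. The groups came close, at 10.9 and 10.6 FPKM, but did not overlap (log2 fold change -0.28, SE 0.08, limma adjusted p = 0.0336). Rrp9, for a protein that binds the U3 snoRNA, went from 9.55 ± 0.51 to 8.11 ± 0.318 FPKM (SD, n = 3), also without overlap (log2 fold change -0.21, limma adjusted p = 0.0314). Utp20, Heatr1 and Nop14, which belong to the small subunit processome, and Nat10, which acetylates the 18S rRNA, had fold changes between -0.08 and -0.02 and did not pass. Wdr43, also of the processome, had 24.8, 25.3 and 24.7 FPKM in MWA+PBS, against 26.3, 26.3 and 29.1 FPKM in MWA+2DG. The groups did not overlap, with MWA+2DG replicate 6 highest, and it did not pass (log2 fold change 0.12, limma adjusted p = 0.130; -0.31 after scaling to CD8 T cell markers).

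Of 9 genes of large subunit processing, 3 were lower (33.3%, against 17.1% of all genes tested). The group had the lowest median of the role groups with more than 1 gene, -0.16. Pa2g4, for the growth-regulated protein EBP1 that binds 60S subunits, had 65.1, 67.3 and 61.0 FPKM in MWA+PBS, against 54.2, 48.5 and 53.6 FPKM in MWA+2DG. Every MWA+2DG sample lay below every MWA+PBS sample, and replicate 5 was the lowest. The means were 64.5 ± 3.19 and 52.1 ± 3.18 FPKM (SD, n = 3), a ratio of 0.808. The log2 fold change of -0.30 had an SE of 0.06 (limma adjusted p = 0.00858). It was the largest decrease of the 34 on the log2(FPKM + 1) scale, whereas by the ratio of group means Wdr12 fell most, at 0.771.

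Pes1, Bop1 and Wdr12 encode the PeBoW complex, which is needed to process the 32S precursor to the 28S rRNA of the large subunit. Bop1 had 24.8, 22.4 and 24.6 FPKM in MWA+PBS, against 19.9, 17.6 and 20.5 FPKM in MWA+2DG, without overlap (log2 fold change -0.29, SE 0.07, limma adjusted p = 0.0159). Wdr12 had 3.12, 3.64 and 3.11 FPKM in MWA+PBS, against 2.42, 2.47 and 2.72 FPKM in MWA+2DG, also without overlap (log2 fold change -0.28, SE 0.08, limma adjusted p = 0.0332). Pes1 had 30.1, 24.9 and 27.1 FPKM in MWA+PBS, against 27.6, 24.1 and 28.1 FPKM in MWA+2DG, with overlapping groups (log2 fold change -0.04, 95% interval -0.24 to 0.16, limma adjusted p = 0.748). Of the 3 subunits, Bop1 and Wdr12 thus passed and Pes1 did not, and the difference between them was not tested. Wdr12 was the lowest of the 34 genes and shares stretches at least 95% identical with 5 other listed genes, of which Tmod3 had a mean of 20.9 FPKM, so its level is uncertain. The 2 such genes of Pes1, Gm5472 and Gm5910, had means of 0.02 and 0.083 FPKM.

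The other large subunit genes did not pass. Nop2, an rRNA methyltransferase, was lower in each MWA+2DG sample than in each MWA+PBS sample (log2 fold change -0.16, limma adjusted p = 0.125). Nop16 had a fold change of -0.19 (limma adjusted p = 0.133). Ddx21, an RNA helicase, was nearly level, at 63.4 ± 0.402 and 63.3 ± 1.08 FPKM, with a 95% interval of -0.11 to 0.10. Rrp1b (0.11) and Gnl3 (0.18), the latter for nucleostemin, did not pass and had fold changes of -0.28 and -0.23 after scaling to CD8 T cell markers. Gnl3 had 13.7, 16.3 and 11.9 FPKM in MWA+PBS, against 15.9, 15.6 and 16.0 FPKM in MWA+2DG. MWA+PBS replicate 2 lay above the 3 MWA+2DG samples, and without it Gnl3 was called higher (limma adjusted p = 0.0175).

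**Figure D2:**
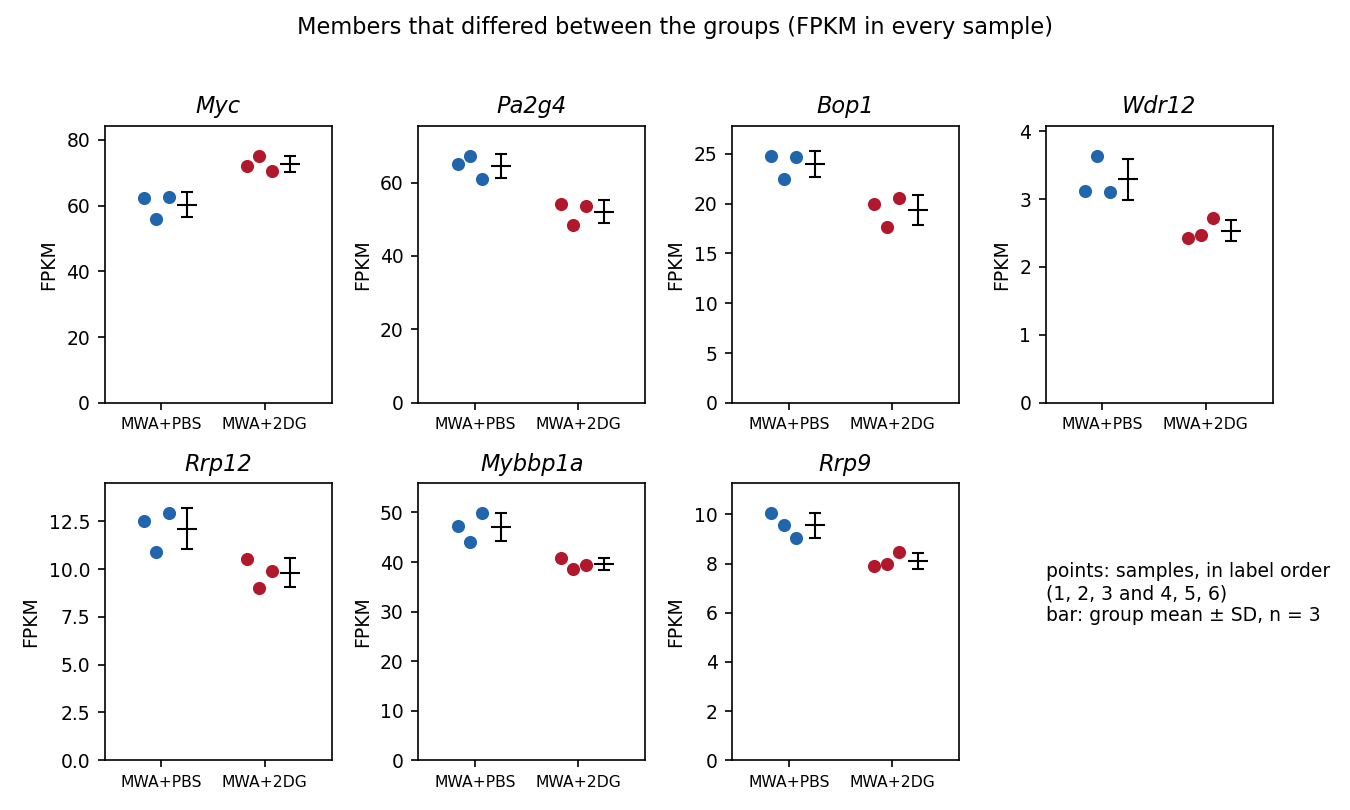
Panels give FPKM on an axis from 0 for the 7 genes at an adjusted p under 0.05, with a point for every sample and a bar for the group mean ± SD (n = 3). In each panel the groups do not overlap, with Myc higher in MWA+2DG (70.6 to 75.2 FPKM against 56.0 to 62.6, a direction that turns after scaling to CD8 T cell markers) and the other 6 lower.

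The calls of Pa2g4 and Myc were kept when each of the 6 samples was left out in turn, with limma adjusted p up to 0.0350 for Pa2g4 and 0.0403 for Myc. Bop1 was lost only without MWA+PBS replicate 1 (limma adjusted p = 0.0601). Mybbp1a was lost without MWA+PBS replicate 1 (0.0549) or MWA+2DG replicate 5 (0.0518) or 6 (0.0548), all limma adjusted p. Rrp12 was lost without MWA+PBS replicate 1 or 3 or MWA+2DG replicate 5 or 6, with limma adjusted p between 0.0789 and 0.103. Rrp9 was kept only when MWA+PBS replicate 3 was left out, and its limma adjusted p otherwise lay between 0.0501 and 0.115. Wdr12 was lost whichever sample was left out, with limma adjusted p between 0.0503 and 0.101. Fitting each gene without the filter on low values, which tests 28458 genes, also ended the calls of Rrp12 (0.0700) and Wdr12 (0.0731).

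After scaling to the CD8 T cell markers, 32 of the 34 genes were called lower and 0 higher in limma (0 also at an unadjusted P under 0.05), with Myc and Gnl3 not called, while 7622 of all genes were lower and 595 higher. The share of higher genes among all calls was 56.5% as deposited and 7.24% after the scaling. Relative to the median of all genes, that of the 34 stood at -0.10 as deposited and at -0.14 after the scaling. The calls thus depend on the reference to which the samples are scaled, and Myc had the highest fold change of the 34 under both.

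**Figure D3:**
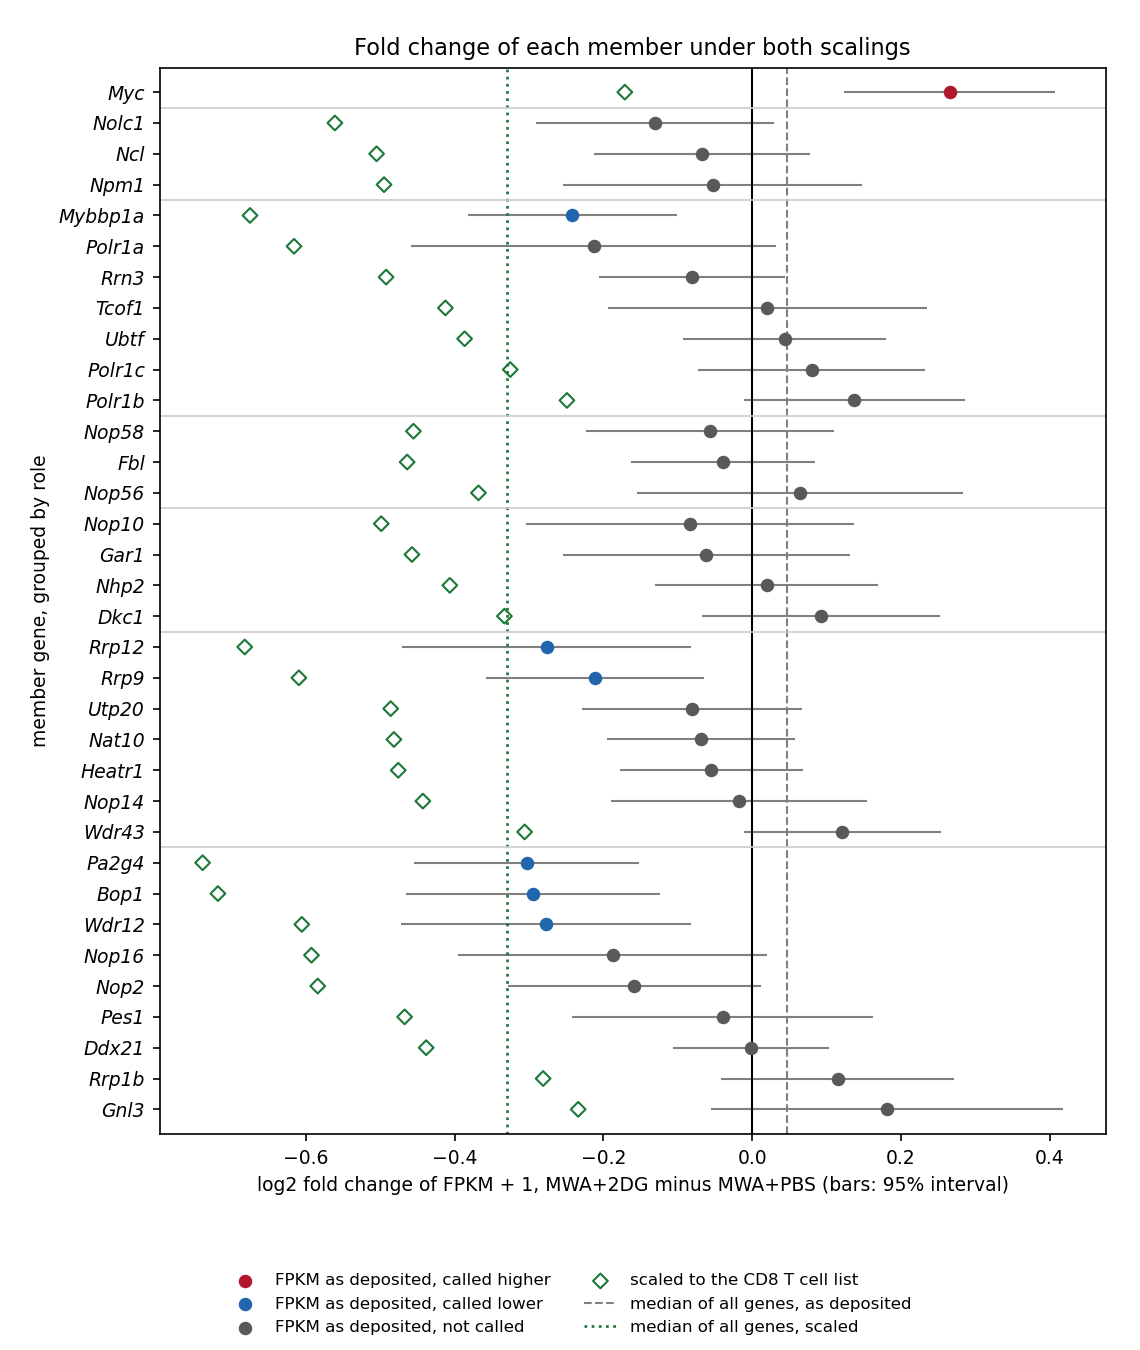
Filled circles give the log2 fold change of each gene (MWA+2DG minus MWA+PBS) with its 95% interval, as deposited, and open diamonds the same after scaling to the CD8 T cell list. The dashed and dotted lines are the medians of all genes, 0.05 and -0.33. Myc is the rightmost gene on both scales, at 0.27 and -0.17, and Pa2g4 the leftmost, at -0.30 and -0.74.

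Markers of CD8 T cells and of other cells differed between the groups, where over all genes tested 17.1% were called lower and 22.3% higher. Of 14 CD8 T cell genes, 13 were higher in MWA+2DG, where they summed to 2016 to 2156 FPKM per sample against 1464 to 1534 in MWA+PBS. Of 18 monocyte and macrophage genes, 17 were lower and 1 (Lyz2) higher, and their sums were 346.1 to 381.6 FPKM against 1095 to 1168. Of 14 neutrophil genes, 10 were higher and 3 lower, with sums of 1628 to 1809 FPKM against 369.1 to 408.6. Of 10 B cell genes tested, 10 were higher, and the 11 listed summed to 60.7 to 66.6 FPKM against 11.2 to 12.3. Of 12 erythroid genes tested, 11 were lower, and the 15 listed summed to 107.0 to 123.1 FPKM against 347.3 to 404.0. Of 6 plasma cell genes tested, 3 were lower and 1 higher, and the 9 listed summed to 57.0 to 60.8 FPKM against 99.99 to 109.6. After scaling to equal CD8 T cell marker levels, 10 neutrophil genes were called higher and 3 lower, and the 10 B cell genes tested were called higher. The monocyte and macrophage list then had 17 lower and 0 higher genes, with Lyz2 no longer called higher. The erythroid list had 12 lower and 0 higher, and the plasma cell list 3 and 0. The CD8 T cell list itself had 3 lower and 3 higher. No gene of these lists was at 0 in all samples. MYC and ribosome biogenesis genes are used by many cell types, and the part of these cells in the values of the 34 genes was not tested. In such bulk samples fewer cells of a type and less RNA per cell cannot be told apart.

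Genes of the MYC network, its partners, antagonists and related E-box factors, were compared next, 11 genes of which 8 were tested. Of the 8, 2 (25%) were lower and 1 (12.5%) higher, against 17.1% and 22.3% of all genes tested. Max, for the obligate partner of MYC, fell from 40.1, 39.5 and 40.2 FPKM to 34.6, 31.6 and 35.5 FPKM, without overlap (log2 fold change -0.23, limma adjusted p = 0.0160). Mlxip, for the glucose-responsive factor MondoA, fell from 35.7 ± 2.38 to 25.4 ± 1.23 FPKM (SD, n = 3; log2 fold change -0.47, limma adjusted p = 0.00122). Mxd1, for a repressor that competes with MYC for MAX, was higher, at 5.11 ± 0.24 and 6.49 ± 0.396 FPKM (log2 fold change 0.29, limma adjusted p = 0.0124; -0.09 and not called after scaling to CD8 T cell markers). Mlx (0.19), Mga (0.12) and Mnt (-0.00), with Mxd4 (-0.09) and Mxi1 (-0.17), did not pass. After that scaling all 5 were below 0 and called, so that 7 of the 8 network genes tested were lower and 0 higher. Mxd3, Mycn and Mycl had a mean under 1 FPKM over the 6 samples and were not tested, and Mycn had 0.62 to 1.23 FPKM in MWA+PBS and 0.21 to 0.42 FPKM in MWA+2DG. Mycl had 0.20 to 0.31 FPKM over both groups, so Myc was the family member at the highest level in each sample. Leaving out 1 sample at a time gave 0 higher network genes without MWA+2DG replicate 6, 2 without MWA+2DG replicate 5 and 1 lower gene without MWA+PBS replicate 1.

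Known MYC targets outside the ribosome, growth genes of nucleotide, polyamine and protein metabolism among them, were compared as well. Of 32 such genes, 14 (43.8%) were lower and 0 higher in limma, with a median log2 fold change of -0.18. Of all genes tested, 17.1% were lower and 22.3% higher. At an unadjusted P under 0.05 the counts were 16 and 0, and with sample weights by arrayWeights 17 and 1. The largest decrease was Hspd1, for the mitochondrial chaperonin HSP60, from 129.4 ± 9.66 to 68.1 ± 2.47 FPKM (SD, n = 3; log2 fold change -0.91, limma adjusted p = 5.11e-05). Its partner Hspe1 (-0.67) and the chaperonin subunits Cct3 (-0.42) and Cct5 (-0.42) were also lower, so that 4 of the 14 encode chaperones. Impdh2 (-0.39), of guanine nucleotide synthesis, Odc1 (-0.36) and Srm (-0.22), of polyamine synthesis, Ran (-0.31), of nuclear transport, and Eif5a (-0.24) and Eif3b (-0.22), translation factors, were lower as well. Ccnd2 (0.08) and Cdk4 (0.18), of G1 progression, did not pass as deposited. After scaling to the CD8 T cell markers all 32 targets, these included, were called lower. The 14 lower targets became 9 without MWA+2DG replicate 4 or 5.

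The proliferation list had 29 of 34 genes (85.3%) lower and 0 higher in limma, with a median of -0.72. At an unadjusted P under 0.05 the counts were 31 and 0, and with arrayWeights 31 and 1. The largest decrease was Aurkb, for a mitotic kinase, at -1.05. The immediate early and heat shock list had 20 of 27 (74.1%) lower and 3 (11.1%) higher, with a median of -0.90. Hspa1b (-5.64) and Dusp2 (0.70) stood at the ends. The part of these genes in the values of Myc and its targets was not tested. After scaling to the CD8 T cell markers 23 of this list were called lower and 0, Dusp2 included, higher, and as deposited 1 was higher without MWA+2DG replicate 5. Other ribosome biogenesis genes came from lists that leave out the 34. Of 45 other genes of the small subunit processome and 40S maturation, 1 (2.22%) was lower (Dhx37, -0.25) and 8 (17.8%) higher. The largest increase was Nol10 at 0.39 (limma adjusted p = 0.00484). Of 50 other genes of 60S maturation, 1 (2%) was lower (Wdr18, -0.26) and 3 (6%) higher, the largest Nip7 at 0.34 (limma adjusted p = 0.0409). Of 15 other RNA polymerase I genes, 0 were lower and 2 (13.3%) higher in limma (0 and 3 at an unadjusted P under 0.05, and 1 and 3 with arrayWeights). The largest increase was Taf1b, of the promoter selectivity factor, which went from 6.86 ± 0.148 to 9.73 ± 0.332 FPKM (log2 fold change 0.45, limma adjusted p = 0.000717). The shares of these 3 lists lay below those of all genes tested, 17.1% lower and 22.3% higher. After scaling to the CD8 T cell markers, none of the genes of these 3 lists was called higher, 36, 45 and 8 were called lower, and the fold change of Nol10 was -0.00, that of Nip7 -0.06 and that of Taf1b 0.05. The medians of these lists as deposited were 0.04, 0.02 and 0.10. The counts of these small changes in the other biogenesis genes moved with single samples. The 8 higher genes of the small subunit list became 4 without MWA+2DG replicate 6 and 5 without MWA+PBS replicate 1. The 1 lower gene of that list became 3 without MWA+PBS replicate 2 and 5 with median ratio scaling or arrayWeights, and 0 without MWA+PBS replicate 1 or 3 or MWA+2DG replicate 4 or 6. The 3 higher genes of the 60S list became 1 without MWA+PBS replicate 3 or MWA+2DG replicate 4 or 6, and 6 without MWA+PBS replicate 2. Its count of lower genes was 1 without MWA+2DG replicate 4, 0 without any other single sample, and 3 with median ratio scaling. The 2 higher genes of the RNA polymerase I list numbered 2 or 3 whichever single sample was left out.

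The ribosomal proteins themselves were seldom called. Cytosolic ribosomal protein genes were picked by symbol, which takes in related genes such as Rpl7l1, Rpl3l and Rpl39l. Of 87 tested, 1 (1.15%) was lower (Rpl7l1, -0.19) and 2 (2.3%) higher, against 17.1% and 22.3% of all genes tested. Their median was 0.02. The largest increase was Rpl35a at 0.70 (limma adjusted p = 0.0103), which was 0.30 and not called after scaling to CD8 T cell markers. Of 78 mitochondrial ribosomal protein genes, 2 (2.56%) were lower, the largest Mrps6 at -0.73 (limma adjusted p = 0.00247), and the median was 0.08. Another 11 (14.1%) were higher, the largest Mrpl58 at 0.50 (limma adjusted p = 0.0103), which was 0.12 and not called after scaling to CD8 T cell markers. After that scaling none was called higher in either list, and 76 and 50 were called lower. These counts moved with single samples as well. The 1 lower cytosolic gene became 0 without MWA+PBS replicate 1 or 3 or MWA+2DG replicate 4 or 5, 4 with quantile normalization and 3 with median ratio scaling. The 2 higher cytosolic genes became 6 without MWA+PBS replicate 2, and 9 with quantile normalization or 8 with arrayWeights. The 2 lower mitochondrial genes became 1 without MWA+PBS replicate 1, and 4 with median ratio scaling or arrayWeights. The 11 higher mitochondrial genes became 4 without MWA+2DG replicate 4, 5 without MWA+PBS replicate 3 or MWA+2DG replicate 6, 6 without MWA+PBS replicate 1 and 7 without MWA+2DG replicate 5, and 18 with arrayWeights.

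**Figure D4:**
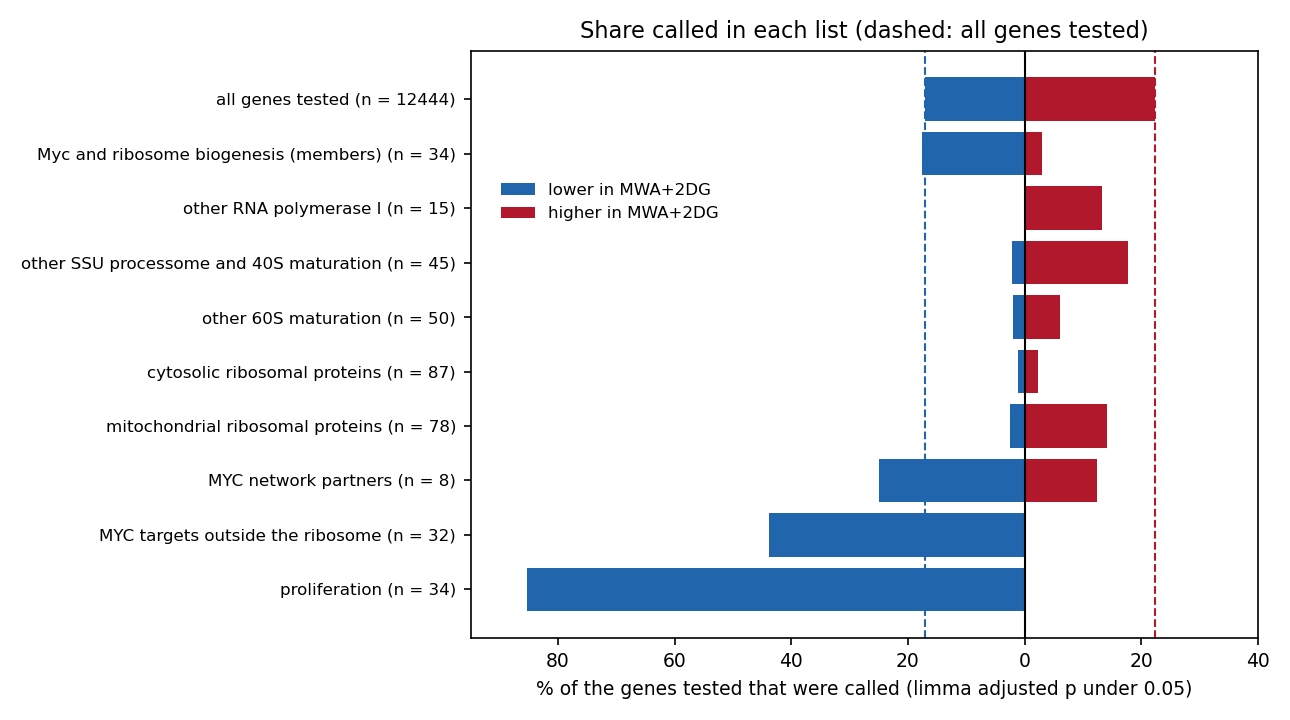
Bars give the percentage of tested genes in each list called lower (left) or higher (right) in MWA+2DG at an adjusted p under 0.05, as deposited, with dashed lines at the shares of all genes, 17.1% and 22.3%. The 34 genes lie at 17.6% lower and 2.94% higher, the proliferation list at 85.3% lower, and the other biogenesis lists at 0 to 2.22% lower. After scaling to the CD8 T cell list no gene of the biogenesis lists was called higher.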

How the data were processed

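Poly(A) RNA of 6 samples of splenic CD8+ T cells was sequenced from strand-marked libraries with molecular identifiers. The deposited values are FPKM per gene, which the authors computed with StringTie and ballgown after quality control by fastp, mapping by HISAT2 and assembly by StringTie. The submitters' processing notes also name cutadapt 1.9, HISAT2 2.0.4, StringTie 1.3.4d, UMI-tools and the mouse build mm9. The sources used here do not say how the identifiers and the strand entered the counting. FPKM is relative to the total of each library, which ran from 291803 to 313257 FPKM. Values were not whole multiples of a common step, so read counts could not be recovered, the depth is unknown, and a check of replicates against sampling noise could not be run.

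Symbols came from GENCODE M21 (28689 of 28773 IDs). limma 3.58.1 in R 4.3.3 (lmFit, eBayes with a trend, two-sided) was run on log2(FPKM + 1) of 12444 genes, those with at least 1 FPKM on average, MWA+2DG minus MWA+PBS, without covariates, with Benjamini-Hochberg adjustment over all of them. The fit was tested on simulated data with independent noise and changes larger than those of the 34 genes. That test did not cover changes as small as theirs. The 34 genes, their role groups and all lists were chosen with earlier results of these data known. Values of every sample were given for Myc and, in each role group, for the called gene with the largest change in each direction or, with none called, for the gene with the largest change. Npm1, Polr1a, Wdr43, Bop1, Wdr12, Pes1 and Gnl3 were given by sample after their values were seen. In related lists the called genes with the largest increase and decrease were named. Other genes of the MYC target list were chosen after their values were seen, and all genes of the MYC network list were named.

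Alternatives were a pseudocount of 0.1, no filter, a mean of at least 5 FPKM, scaling by quantiles, by median ratios, to 14 CD8 T cell genes or to a total that leaves out dominant classes (ribosomal protein, haemoglobin, immunoglobulin and mitochondrial genes), eBayes without a trend, arrayWeights, the call rule of the study and leaving out each sample. Promoter windows were from RefSeq (GRCm38.p6), a build other than that of the files, and were joined by symbol. Near-identical copies were sought with BLAST 2.17.0 in GENCODE M21 transcripts at 95% identity over at least 200 bases. Protein sequences were not used here.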

Additional observations from a re-analysis of the deposited data

How the results depend on the processing

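Of the 34 log2 fold changes, all kept their direction and side of the threshold with a pseudocount of 0.1, quantile normalization, scaling without dominant gene classes and eBayes without a trend. Scaling to CD8 T cell genes gave 32 lower and 0 higher genes of the 34, a median of -0.47, 32 lower MYC targets, and 7622 lower and 595 higher genes in all. It reversed Myc to -0.17, Nop56 to -0.37, Dkc1 to -0.33, Nhp2 to -0.41, Rrp1b to -0.28, Wdr43 to -0.31, Gnl3 to -0.23, Polr1b to -0.25, Polr1c to -0.33, Tcof1 to -0.41 and Ubtf to -0.39, which follows from its construction, since it divides the FPKM of a sample by 1 factor that was larger in each MWA+2DG sample. Because of the pseudocount the shift was smaller for low genes. Median ratio scaling reversed Nhp2 to -0.030, Tcof1 to -0.029 and Ubtf to -0.0055. It took the share of higher genes among all calls from 56.5% to 48.6%. With arrayWeights 2 of the 34 were higher, Npm1 turned to 0.012, Nhp2 to -0.0086, Nop14 to 0.059, Tcof1 to -0.067 and Ubtf to -0.0079, and Nop2, Polr1a and Gnl3 were called, and the cause was not tested. A mean of at least 5 FPKM gave 1164 lower and 1787 higher genes of only 7313 tested.

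Leaving out 1 sample at a time, which leaves a group of 2, gave 1 to 5 lower genes of the 34 (1 without MWA+PBS replicate 1, 2 without MWA+2DG replicate 5 or 6), 1 to 2 higher (2 without MWA+PBS replicate 2), a median of -0.07 to -0.03, and 9 to 14 lower MYC targets (9 without MWA+2DG replicate 4 or 5). Genes called lower in all ran from 1583 to 2169 and higher from 1976 to 2983. Fold changes near 0 turned sign in some of these fits, with ranges of -0.106 to 0.038 for Npm1, -0.015 to 0.163 for Nop56, -0.093 to 0.0049 for Nop58, -0.042 to 0.053 for Nhp2, -0.103 to 0.029 for Pes1, -0.074 to 0.057 for Nop14, -0.015 to 0.0087 for Ddx21, -0.078 to 0.071 for Tcof1 and -0.0045 to 0.084 for Ubtf. No paired analysis was possible because the groups share no replicate number. The depth of the samples is unknown, and no limit of detection was computed.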

Other observations

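Single samples stood at an end of their group in many of the 34 genes, as they did over all genes tested. MWA+2DG replicate 5 was the lowest of its group in 20 of them (58.8%) and the highest in 8 (23.5%), against 41.5% and 30.5% of all genes. MWA+PBS replicate 2 was the lowest of its group in 15 (44.1%) and the highest in 13 (38.2%), against 32.6% and 43.8% of all genes. MWA+PBS replicate 3 was the lowest in 16 (47.1%), against 43.2% of all genes.

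Transcript length was taken as that of the longest annotated GENCODE M21 transcript of a gene, which need not be the form expressed. Over all genes tested, the median log2 deviation of MWA+PBS replicate 2 from the other 2 MWA+PBS samples was 0.08 for the 4127 genes under 2000 bases. For the 2216 genes over 5000 bases it was -0.02. Among the 34, the genes in which MWA+PBS replicate 2 was highest had a median length of 2483 bases. Those in which it was lowest had a median of 4340 bases. By this measure Wdr12 (10010 bases), Nop58 (9507 bases) and Ncl (8202 bases) were among the longest and ran the other way, with deviations of 0.17, 0.18 and 0.17. Whether their expressed transcripts are that long was not examined. The part of transcript length in the results was not tested.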
